A study of Mus musculus with 24 samples.

Results

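Hsd3b5 and 9 other genes for enzymes of steroid metabolism were followed in the livers of 24 mice. The members are Hsd3b5, Hsd3b2, Hsd3b3, Hsd11b1, Hsd17b2, Hsd17b6, Hsd17b13, Srd5a1, Akr1d1 and Akr1c6, taken as every array probe that carries one of these names. These are 10 of 37074 gene names and 16 of 56605 gene probes on the array. All 10 genes and all 16 probes passed the filter on dim signals, as did 21331 genes and 32037 probes in all. The genes were chosen with their response to treatment in view, so the differences between treated and vehicle mice are given below as a description, without a test.

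The mice were male C57Bl/6J on a standard diet with free access to it. LWT mice had PPARα in their hepatocytes and LKO mice lacked it there, according to the title of the series; PPARα is a nuclear receptor for fatty acids. The labels used here do not name the Cre driver, the deleted exons or the age of the mice. The groups that the labels call Beta3 received CL316243 by gavage at 3 mg/kg; the compound activates beta3 adrenergic receptors, which are found mainly on fat cells. The vehicle groups received 0.5% carboxymethyl cellulose alone. Gavage was at Zeitgeber time 10 h (hours after lights on) and all livers were taken at 16 h. Each of the 4 groups held 6 mice, 1 single-colour array per mouse.

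Steroid hormones are shaped in the liver by small families of oxidoreductases. The Hsd3b, Hsd11b and Hsd17b enzymes move hydrogen at fixed positions of the steroid ring system, and the Srd5a and Akr1 enzymes reduce double bonds or keto groups. Hsd3b5 belongs to the Hsd3b group but works mainly as a reductase that inactivates steroids such as dihydrotestosterone, and in mice it is known for expression in male liver under the pulsatile growth hormone pattern of males.

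Levels are log2 intensities relative to the 75th percentile of the same array, so 0 means a signal equal to that percentile, and a difference of 1 is a doubling. Levels are compared between mice for the same probe and never between probes. The 75th percentile itself ranged from 271.1 to 390.1 intensity units, and 26985 to 34202 of the 56605 probes were well above background per array. The signals of hepatocyte marker genes, summed over all 8 and measured against the 75th percentile, were between 5100 and 6680 in all groups. In whole liver, fewer cells of a type and less RNA per cell cannot be told apart.

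Both Ppara probes were lower in every LKO mouse than in every LWT mouse of the same treatment. Under vehicle the levels of the probe at base 2273 of the transcript ran from 6.02 to 6.48 in LWT and from 5.37 to 5.74 in LKO. Under CL316243 they ran from 6.25 to 6.98 in LWT and from 3.61 to 5.40 in LKO. The LKO minus LWT difference under CL316243 was -1.91 (SE 0.20, limma adjusted p = 3.43e-07) for this probe and -2.09 (SE 0.20, limma adjusted p = 5.71e-08) for the probe at base 7356. Under vehicle the differences were -0.67 (adjusted p = 0.156) and -0.92 (adjusted p = 0.0196). Whether either probe lies in the deleted part of the gene is not given in the sources used here.

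The genes Hsd3b5, Hsd3b2 and Hsd3b3 lie together on chromosome 3, and their upstream sequences show how far close relatives differ. In the RefSeq promoter table (build GRCm38.p6), 9 of the 10 members matched, with 11 start sites among them. The 250 bases upstream of the start are printed for Hsd3b5 at chr3:98645535-98645784 and for Hsd3b3 at chr3:98763129-98763378, both on the minus strand and both 5′ to 3′. For Hsd3b3 the table has 2 start sites, of which the one listed before the other is shown. Capitals mark the run of at least 12 bases that both share.
Hsd3b5: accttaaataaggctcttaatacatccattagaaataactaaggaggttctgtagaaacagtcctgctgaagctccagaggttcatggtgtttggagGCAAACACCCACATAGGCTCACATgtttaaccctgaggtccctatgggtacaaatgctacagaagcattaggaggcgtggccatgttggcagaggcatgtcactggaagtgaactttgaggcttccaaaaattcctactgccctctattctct
Hsd3b3: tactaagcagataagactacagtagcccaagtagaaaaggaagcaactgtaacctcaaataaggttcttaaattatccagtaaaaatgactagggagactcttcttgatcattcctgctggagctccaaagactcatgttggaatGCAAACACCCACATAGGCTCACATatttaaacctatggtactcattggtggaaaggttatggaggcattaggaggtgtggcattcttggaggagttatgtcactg

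The shared run is 24 bases long and begins 153 bases before the start of Hsd3b5 and 105 bases before the listed start of Hsd3b3. Among the other 12 start sites of members and Hsd3b genes, the longest run shared with Hsd3b5 was 7 to 10 bases. In a global alignment, 60.4% of the 250 bases of Hsd3b5 were identical in Hsd3b3 and 51.2% in Hsd3b2. Members outside the Hsd3b group had 46.4% (Srd5a1) to 54.4% (Hsd17b6 and Hsd17b13), so the value for Hsd3b2 lay within their range. The letters TTCNNNGAA, the core bound by STAT proteins, were searched on both strands of this window and are present in 7.02% of 32851 promoters. They occurred at 0 of the 11 member start sites. The CRE letters TGACGTCA (1.55% of promoters) and the E-box letters CACGTG (6.02%) also occurred at 0 of 11. With no match there was no overlap between motifs to count, and a window without these letters says nothing about whether the factors act on the gene.

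Because the Hsd3b genes are close relatives, the probes themselves bear on what was measured. Each probe is 60 bases long. The longest run shared by a probe of Hsd3b5, Hsd3b2 or Hsd3b3 with a probe of another Hsd3b gene was the 23 bases below, shown in capitals within bases 31 to 60 of the Hsd3b5 probe and 24 to 53 of an Hsd3b4 probe.
Hsd3b5 probe: ttgATACCTTTATGAAGCTCAAAGAAcaat
Hsd3b4 probe: cccATACCTTTATGAAGCTCAAAGAAaaga

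This Hsd3b4 probe was well above background on 2 of the 6 arrays of LKO vehicle and on 0 of the 6 in each other group. Cross-hybridisation among transcripts of the family cannot be measured from these arrays, so the assignment of signal to single Hsd3b genes is uncertain.

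Hsd3b5 had a far lower signal in treated than in untreated livers of both genotypes, and its single probe was well above background on all 24 arrays. The probe lies at chr3:98422576-98422635 on the minus strand (build mm9, as in the array's annotation) and starts at base 1530 of the RefSeq transcript. Under vehicle the level in LWT was lowest at 5.80, 6.39 at the median and 6.73 at the highest. Under vehicle in LKO these values were 6.36, 6.57 and 6.68. After CL316243 they were -0.27, 0.19 and 2.85 in LWT, and 0.77, 1.47 and 3.21 in LKO. Every treated mouse was below every vehicle mouse of its genotype, and the highest treated mouse, at 3.21, lay below the lowest vehicle mouse, at 5.80.

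The difference between CL316243 and vehicle was -5.65 (SE 0.42, 95% interval -6.52 to -4.78, n = 6 and 6) in LWT, a 50.1-fold lower signal. In LKO it was -4.93 (SE 0.42, 95% interval -5.80 to -4.06), a 30.5-fold lower signal. The 3 slides, taken as the arrays that share a scan time, each held 2 mice of each group. By slide the treatment difference was -4.84, -6.49 and -5.61 in LWT and -5.49, -4.31 and -4.99 in LKO. In LWT the SD was 0.32 under vehicle and 1.22 after treatment, and in LKO it was 0.11 and 0.85.

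**Figure D1:**
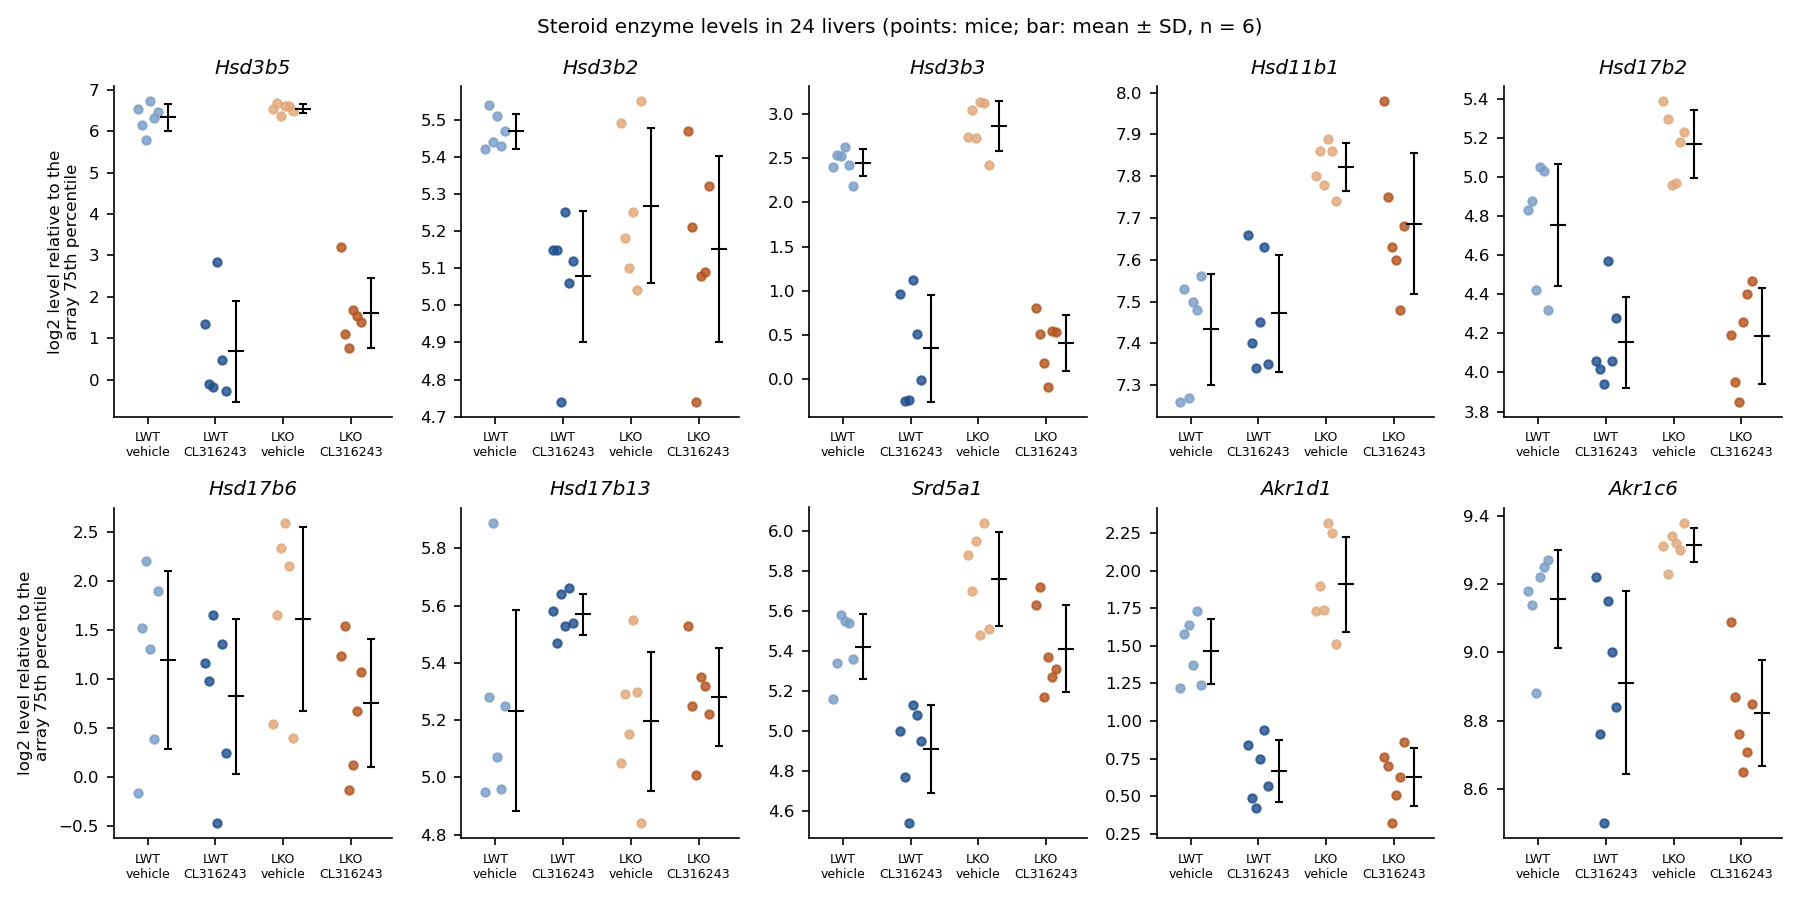
Level of each of the 10 genes in each mouse (y axis, log2 relative to the array's 75th percentile, a separate scale in each panel) in the 4 groups of 6 (x axis); points are mice, and the bar beside them is the mean ± SD. Hsd3b5 lies between 5.80 and 6.73 in all 12 vehicle mice and between -0.27 and 3.21 in all 12 CL316243 mice; for Hsd3b2 the panel shows its brightest probe.

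Hsd3b2 and Hsd3b3 encode further members of the family, which oxidise and isomerise delta-steroids in steroid synthesis and are also found in liver and kidney. Hsd3b3 has 1 probe, at chr3:98546284-98546343 (mm9, minus strand). Its level under vehicle ran from 2.18 through a median of 2.47 to 2.63 in LWT and from 2.42 through 2.89 to 3.13 in LKO. After CL316243 it ran from -0.25 through 0.25 to 1.12 in LWT and from -0.09 through 0.52 to 0.80 in LKO. The groups did not overlap in either genotype. The difference was -2.10 (SE 0.21) in LWT and -2.45 (SE 0.21) in LKO, or 4.29-fold and 5.47-fold lower.

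Hsd3b2 has 3 probes, and they disagreed. They measure different stretches of the locus, as the opening 30 bases of each show.
Base 3088 of an Ensembl transcript: tgaagtatggacactatgcccctccttaga
Base 1716 of the RefSeq transcript: gcccaatggaagaaacaattatttgtcaat
Base 1067 of the RefSeq transcript: aagctttgatgatataagttacaccttgag

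The probe on the Ensembl transcript, at chr3:98513725-98513784, was the brightest and therefore stands for the gene in counts over genes. It lies 1269 bases beyond the nearer RefSeq probe on mm9. In LWT it spanned 5.42 to 5.54 under vehicle and 4.74 to 5.25 after treatment, which do not overlap. In LKO it spanned 5.04 to 5.55 and 4.74 to 5.47, which do. The CL316243 differences were -0.39 (SE 0.11) and -0.12 (SE 0.11).

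The RefSeq probe at base 1716 had far larger differences. In LWT it spanned 3.38 to 3.86 under vehicle against -0.83 to 1.52 after treatment. In LKO the ranges were 3.29 to 4.13 against 0.31 to 1.52. The differences were -3.13 (SE 0.29, 8.76-fold lower) in LWT and -2.97 (SE 0.29, 7.86-fold lower) in LKO. For the probe at base 1067 they were -2.61 (SE 0.23) and -2.78 (SE 0.23). Both RefSeq probes separated treated from vehicle mice completely, so the size of the Hsd3b2 difference depends on the probe: the mean of the 3 probes gave -2.04 in LWT and -1.96 in LKO.

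**Figure D2:**
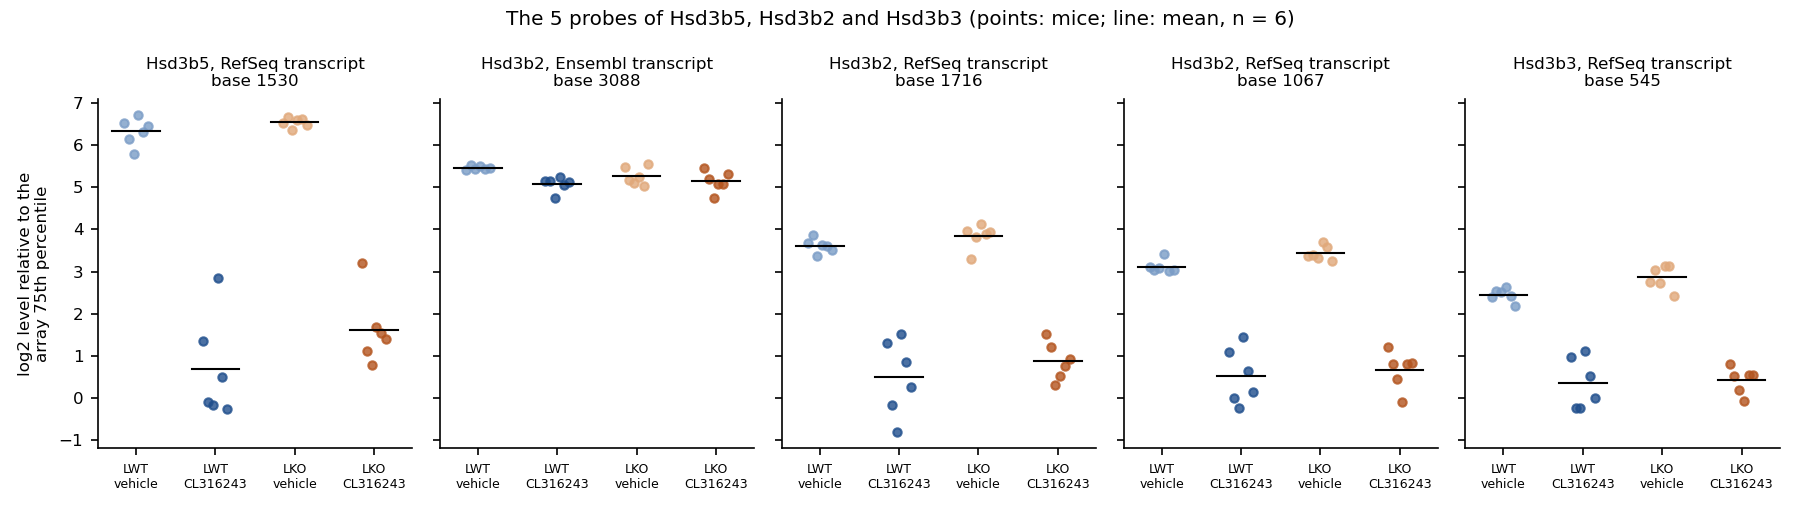
Levels of the 5 probes of Hsd3b5, Hsd3b2 and Hsd3b3 in each mouse (y axis, log2 relative to the array's 75th percentile, shared scale; x axis, the 4 groups of 6; points are mice and lines are means). The Hsd3b2 probe on the Ensembl transcript stays between 4.74 and 5.55 in all groups, while its probes on the RefSeq transcript drop to between -0.83 and 1.52 after CL316243.

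Akr1d1, the reductase that sets the bent ring junction of bile acids and inactivates several hormones, was lower after CL316243 on both its probes. At base 1719 of its transcript (chr6:37517836-37517895, plus strand, mm9) the LWT level ran from 1.22 to 1.73 under vehicle and 0.42 to 0.94 after treatment, and the LKO level from 1.51 to 2.32 and 0.32 to 0.86. Treated and vehicle mice did not overlap in either genotype. The differences were -0.79 (SE 0.14) in LWT and -1.28 (SE 0.14) in LKO. The probe at base 188 gave -1.59 (SE 0.20) and -1.33 (SE 0.20), so in LWT the values of the 2 probes were further apart than in LKO.

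Hsd17b2 oxidises estradiol and testosterone to less active ketones. Its level (chr8:120282508-120282567, plus strand) had medians of 4.86 under vehicle and 4.06 after treatment in LWT, and of 5.20 and 4.23 in LKO. The treated and vehicle ranges overlapped in LWT (3.94 to 4.57 against 4.32 to 5.05) and did not in LKO (3.85 to 4.47 against 4.96 to 5.39). The differences were -0.60 (SE 0.14) and -0.98 (SE 0.14). Within slides the LWT difference was 0.05, -0.88 and -0.98.

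Srd5a1, the reductase that makes dihydrotestosterone from testosterone, has 3 probes on chromosome 13. The brightest, at base 2556 of the RefSeq transcript, ran from 5.16 to 5.58 under vehicle and 4.54 to 5.13 after treatment in LWT, and from 5.48 to 6.04 and 5.17 to 5.72 in LKO. The difference was -0.51 (SE 0.12) in LWT, where the groups did not overlap, and -0.35 (SE 0.12) in LKO, where they did. The probe on an Ensembl transcript gave -0.27 (SE 0.12) and -0.56 (SE 0.12). The probe on a cDNA clone gave -2.19 (SE 0.55) and -3.26 (SE 0.55), with 1 LKO CL316243 mouse at -5.38 not well above background.

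Akr1c6, which reduces estrone and androstenedione, had small differences of -0.24 (SE 0.10) in LWT and -0.49 (SE 0.10) in LKO. Its LWT level spanned 8.88 to 9.27 under vehicle and 8.50 to 9.22 after treatment, and its LKO level 9.23 to 9.38 and 8.65 to 9.09. The ranges did not overlap in LKO.

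For Hsd11b1, which regenerates active glucocorticoid from its inactive form, the differences were 0.04 (SE 0.08, 95% interval -0.13 to 0.20) in LWT and -0.13 (SE 0.08, 95% interval -0.30 to 0.03) in LKO. Hsd17b6, which acts on androgen metabolites and retinol, varied widely within every group, with SDs of 0.91 under vehicle and 0.79 after treatment in LWT, and of 0.94 and 0.65 in LKO. Its differences were -0.37 (SE 0.46) and -0.86 (SE 0.46). Hsd17b13, a lipid droplet protein with retinol dehydrogenase activity, had differences of 0.34 (SE 0.13) in LWT and 0.08 (SE 0.13) in LKO on its brighter probe. By slide the LWT difference of that probe was -0.03, 0.44 and 0.60. The dim probe at base 1430 gave 0.23 (SE 0.39) in LWT and 0.47 (SE 0.39) in LKO.

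**Figure D3:**
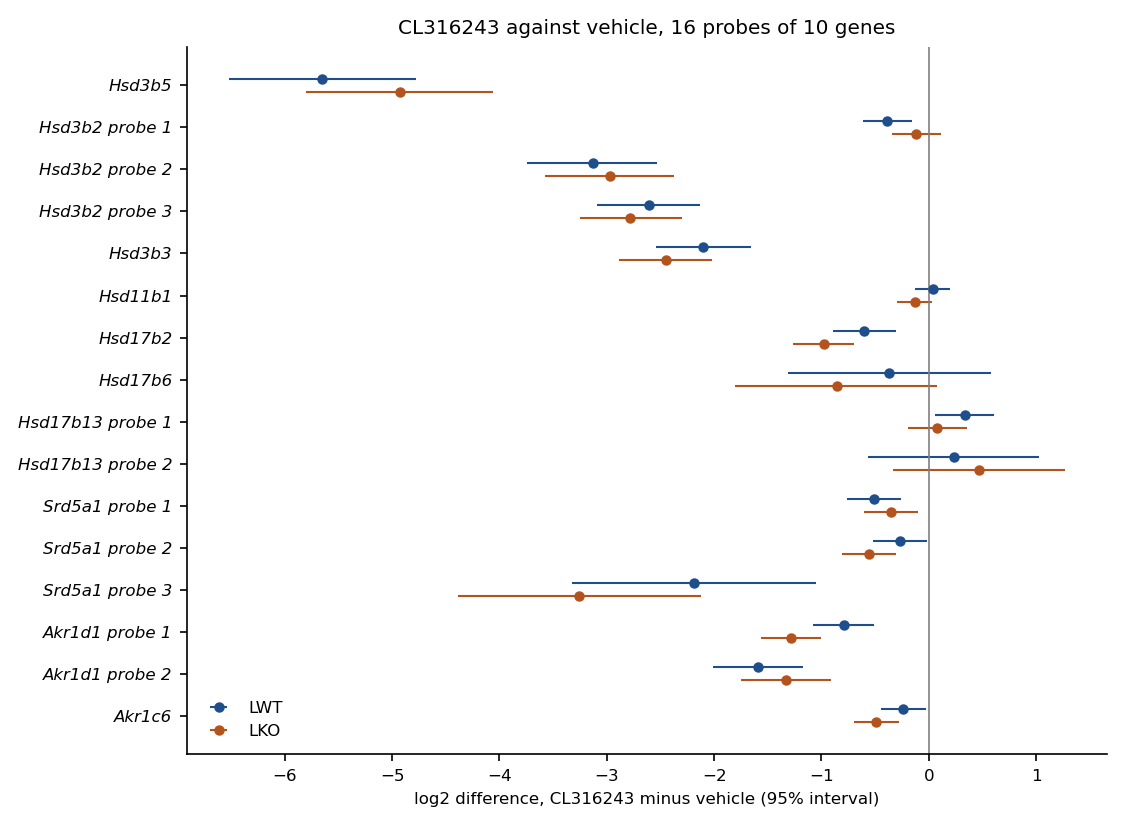
CL316243 minus vehicle for each of the 16 probes (x axis, log2 difference with its 95% interval; y axis, probes from the brightest down within a gene), in LWT and in LKO. Hsd3b5 lies at -5.65 in LWT and -4.93 in LKO, and the brightest Hsd3b2 probe lies apart from the other 2 probes of that gene.

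In each genotype 5 of the 10 members were lower with no overlap between the groups, against 10.1% of all genes in LWT and 10.4% in LKO. The median difference of the members was -0.45 in LWT and -0.68 in LKO, and that of all genes was 0.01 and 0.03. Because the members were chosen on these contrasts, nothing is read from these shares.

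Tests are given for the comparison between genotypes, since the members were picked for their response to treatment. It uses the same mice, and earlier results of these data were known when the members were picked, so these tests are not free of that choice. Under vehicle, Hsd11b1 was called, and it was higher in LKO. Its level was 7.26, 7.49 and 7.56 (lowest, median, highest) in LWT and 7.74, 7.83 and 7.89 in LKO, so all 6 LKO mice lay above all 6 LWT mice. The probe is at chr1:195048169-195048228 (mm9, minus strand). The difference was 0.39 (SE 0.08, 1.31-fold; limma, Benjamini-Hochberg adjusted p = 0.0123), and the two-sided exact permutation p over 924 splits was 0.00216, the smallest this design can give. Within the 3 slides it was 0.34, 0.43 and 0.38.

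The other 9 genes were not called under vehicle, where 1.18% of all genes tested were called. For Hsd3b5 the difference was 0.21 (95% interval -0.66 to 1.09, adjusted p = 0.998). Of the 10 differences 8 were positive, with a median of 0.36 against -0.01 over all genes. Taken gene by gene without adjustment, 6 of the 10 genes were higher in LKO at an exact permutation p under 0.05, against 5.12% of all genes. These were Hsd3b3 (0.42), Hsd11b1, Hsd17b2 (0.42), Srd5a1 (0.34), Akr1d1 (0.45) and Akr1c6 (0.16). Of them only Hsd11b1 passed the adjustment over all genes. The count uses the brightest probe of each gene, and other probes gave other values. The Akr1d1 probe at base 188 gave -0.06 and the Srd5a1 cDNA clone probe 0.03 (exact permutation p = 0.716 and 0.89). The Hsd3b2 probe at base 1067 gave 0.32 (exact permutation p = 0.0108), against -0.20 on the brightest Hsd3b2 probe. Among the 16 probes 2 were called, against 1.10% of all probes: that of Hsd11b1 and the Srd5a1 probe on the Ensembl transcript. The latter had levels of -0.35 to 0.22 in LWT and 0.32 to 0.53 in LKO, a difference of 0.58 (SE 0.12, limma adjusted p = 0.012 over all probes).

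Under CL316243, Srd5a1 was called, and it was higher in LKO. Its brightest probe (chr13:69712376-69712435, mm9, minus strand) had levels of 4.54, 4.98 and 5.13 in LWT and 5.17, 5.34 and 5.72 in LKO, with no overlap. The difference was 0.50 (SE 0.12, 1.41-fold; limma adjusted p = 0.00561), the two-sided exact permutation p was 0.00216, and the slides gave 0.40, 0.81 and 0.28. The call rests on that probe: the Ensembl probe gave 0.29 (adjusted p = 0.108), the cDNA clone probe gave -1.04 (adjusted p = 0.228), and the mean of the 3 gave -0.08 (adjusted p = 0.866).

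The other 9 genes were not called under CL316243, where 15.9% of all genes were called. Of the 16 probes 1 was called, against 15.3% of all probes. At an unadjusted exact permutation p under 0.05, 2 of the 10 genes were higher in LKO, against 11.7% of all genes. Hsd11b1 differed by 0.22 (adjusted p = 0.0733) and by 0.29, 0.46 and -0.11 within the slides. Its call turned with the setting: quantile normalization gave an adjusted p of 0.0358 and the values of the authors' series file gave 0.0342, and it was also past the threshold without LWT CL316243 replicate 1 (0.0386) or LKO CL316243 replicate 5 (0.037). Hsd17b13 was -0.29 (adjusted p = 0.153, exact permutation p = 0.00649).

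For Hsd3b5 the LKO minus LWT difference under CL316243 was 0.93 (95% interval 0.06 to 1.80, limma adjusted p = 0.147, two-sided exact permutation p = 0.16). Each group held 1 mouse above its others: LKO replicate 1 at 3.21, with the next at 1.69, and LWT replicate 4 at 2.85, with the next at 1.34. Without the LWT mouse the difference was 1.37 (adjusted p = 0.00549), and without the LKO mouse it was 0.61 (adjusted p = 0.334). By slide the difference was -0.36, 2.45 and 0.71. On the slide with 2.45 every other member probe except that of Hsd17b6 (-0.17) also had its highest difference. Examples are Hsd3b3 (0.92), the Hsd3b2 probes at base 1716 (1.72), base 1067 (1.16) and base 3088 (0.45), Hsd11b1 (0.46) and Akr1c6 (0.34).

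The difference between the CL316243 effects in LKO and LWT was tested as an interaction, and 0 of the 10 genes passed, with 1 at an unadjusted p under 0.05 (limma). Of all genes tested, 5.40% were called, and of all probes, 5.91%. For Hsd3b5 it was 0.72 (SE 0.59, 95% interval -0.51 to 1.95, adjusted p = 0.584), and it was 0.40 without LKO CL316243 replicate 1 and 1.15 without LWT CL316243 replicate 4 (adjusted p = 0.771 and 0.158). For Hsd3b3 it was -0.35 (95% interval -0.97 to 0.26) and for Hsd3b2 0.27 (-0.04 to 0.59) on its brightest probe. Akr1d1 had -0.48 (95% interval -0.88 to -0.09, adjusted p = 0.164), and its probe at base 188 had 0.26 (95% interval -0.34 to 0.85). A missed threshold does not show that the effects were alike in the 2 genotypes.

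**Figure D4:**
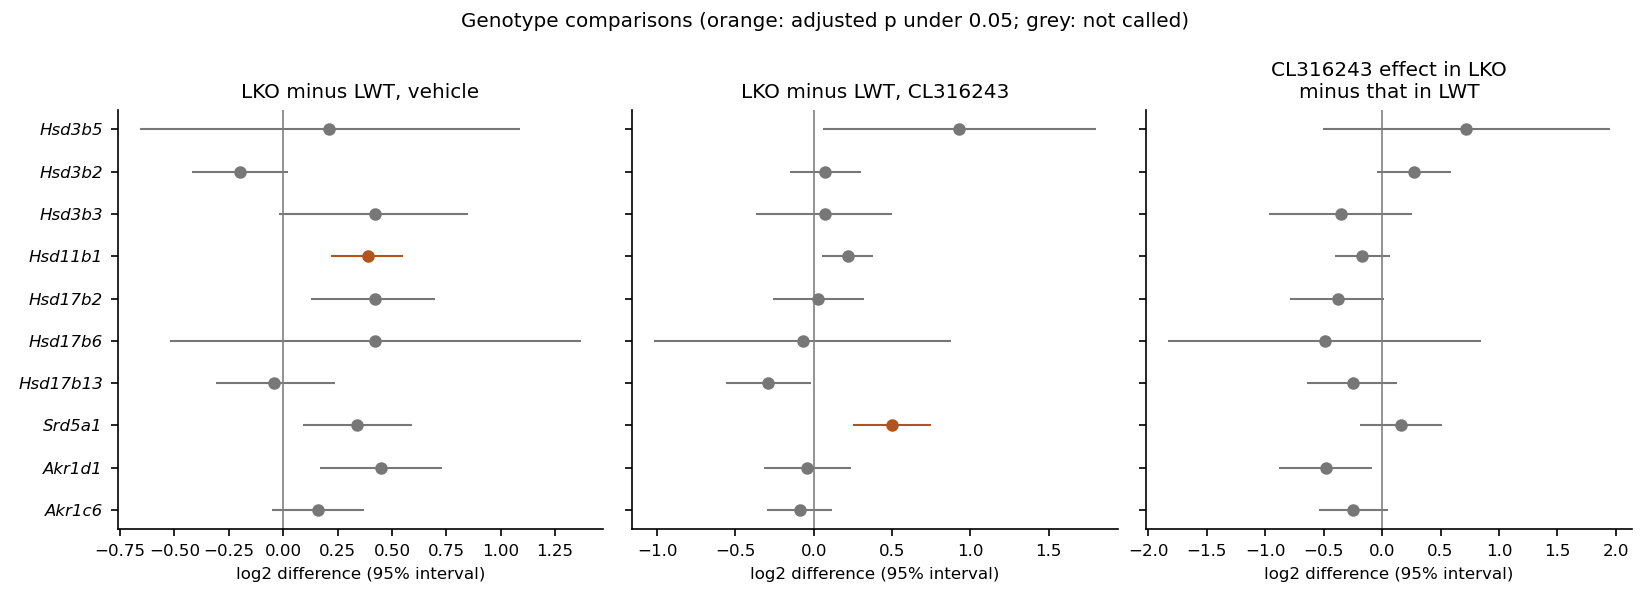
LKO minus LWT for the 10 genes under vehicle (left) and CL316243 (middle) and the interaction (right), as log2 differences with 95% intervals (x axis) by gene (y axis); orange marks an adjusted p under 0.05. Hsd11b1 at 0.39 under vehicle and Srd5a1 at 0.50 under CL316243 are the points marked.

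Mice with more Hsd3b5 left after CL316243 also had more of several other members. For each mouse the deviation from its group mean was taken, and over the 12 CL316243 mice the deviations of Hsd3b5 had a Pearson r of 0.80 with Hsd3b3 (Spearman rho 0.77), 0.79 with each RefSeq probe of Hsd3b2 (rho 0.77 and 0.73), 0.77 with the Ensembl probe of Srd5a1 (rho 0.71) and 0.74 with Akr1c6 (rho 0.60). The 2 mice farthest from the middle were LWT CL316243 replicate 4 and LKO CL316243 replicate 1. Without them r was 0.71 for Hsd3b3, 0.71 and 0.59 for the Hsd3b2 probes, 0.44 for the Srd5a1 probe and 0.62 for Akr1c6. Over all 12 CL316243 mice, Hsd17b6 had an r of -0.26. Over the 12 vehicle mice r was 0.15 for Hsd3b3, 0.057 and 0.48 for the Hsd3b2 probes at base 1716 and base 1067. It was 0.55 for the Srd5a1 probe, 0.65 for Akr1c6 and -0.3 for Hsd17b6. The values are a description, because probes of a family share arrays and possibly signal.

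The median r of the 15 other member probes was 0.57, and that of all 32037 probes was 0.0071. Above 0.7 were 33.3% of the former and 2.26% of the latter. The members were chosen for their response to CL316243, so a higher share may follow from that choice, and nothing is read from it. The deviations of Hsd3b5 also followed the main axis of variation over all genes (42% of the variance). Their r with the first principal component, on which CL316243 mice score higher, was -0.62 over the CL316243 mice and -0.71 over the vehicle mice. LWT CL316243 replicate 4 scored 9.32, the lowest of its group. LKO CL316243 replicate 1 scored 18.6, which was not the lowest of its group, since replicate 4 scored 11.76.

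**Figure D5:**
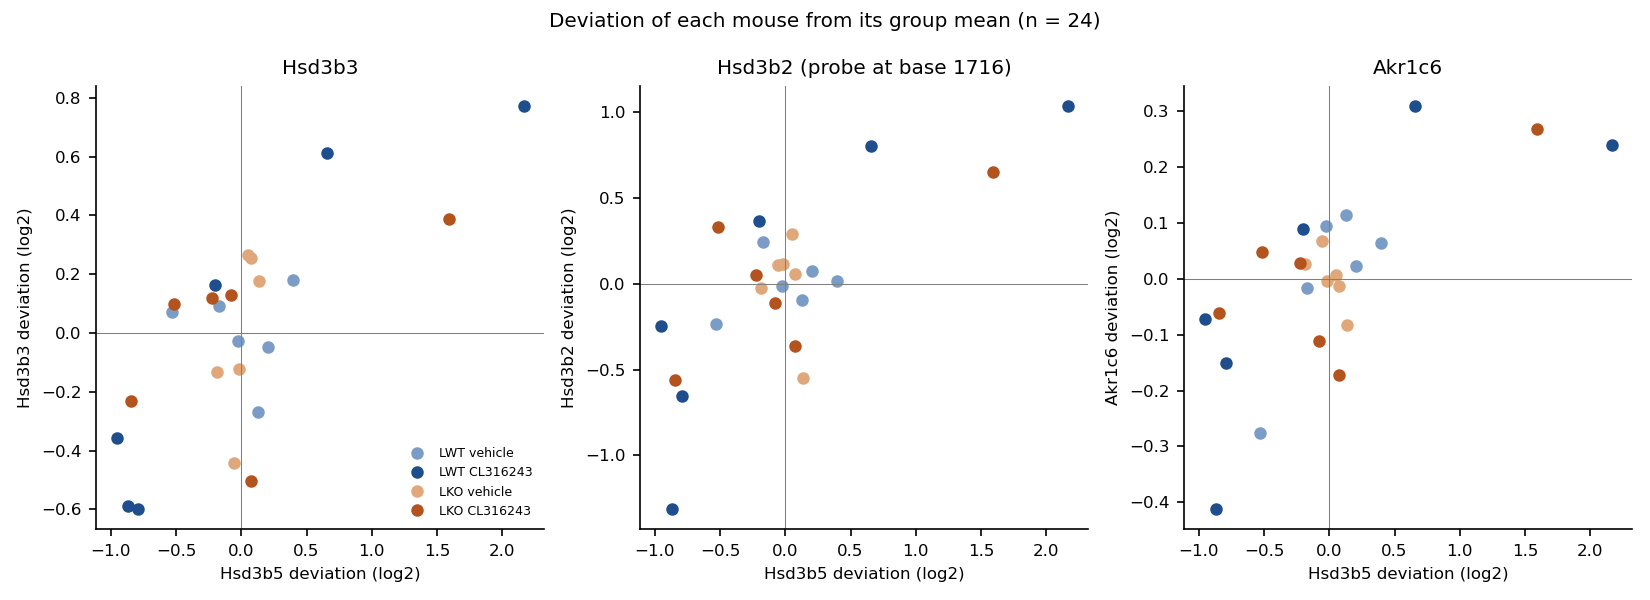
Deviation of each of the 24 mice from its group mean for Hsd3b5 (x axis, log2) against Hsd3b3, an Hsd3b2 probe on the RefSeq transcript and Akr1c6 (y axes, log2), coloured by group. The CL316243 mice spread along a rising band, with r = 0.80 for Hsd3b3, 0.79 for the Hsd3b2 probe and 0.74 for Akr1c6.

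Over all 24 mice the named genes outside the Hsd3b family whose level was most like that of Hsd3b5 were Hdac11, a histone deacetylase (Pearson r = 0.981), Slc22a28 (0.975), an organic anion transporter, Keg1 (0.974), Tk1 (0.972), thymidine kinase, and Akr1c14 (0.971), a reductase of steroid ketones. Among the most opposite were Cep55 (-0.966), Lcn2 (-0.965), an acute phase protein, Picalm (-0.962) and Zdhhc13 (-0.962). These r span treated and vehicle mice, which form separate clusters for Hsd3b5. By deviations from the group means the order was Mfsd3 (0.855), Akr1c14 (0.851), Keg1 (0.836), Aldh7a1 (0.825) and Lactb (0.822), so Akr1c14 and Keg1 were in both lists.

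Among the other enzymes of steroid metabolism, 29 of 39 listed genes could be tested; in LWT 6 were called higher and 12 lower after CL316243 at an adjusted p under 0.05, and in LKO 5 and 12. Of all genes tested, 19.1% were called higher and 19.1% lower in LWT, and 20.7% higher and 19.4% lower in LKO. Among the called genes, the 4 with the largest differences were the same in both genotypes. Hsd3b6, a further gene of the family, differed by -2.17 (SE 0.21, limma adjusted p = 7.04e-08) in LWT and -2.60 (SE 0.21, adjusted p = 2.05e-08) in LKO. Akr1c14 differed by -1.87 (SE 0.22, adjusted p = 8.69e-07) and -1.46 (SE 0.22, adjusted p = 2.31e-05). Hsd3b1 differed by -2.48 and -2.83 and Srd5a2, the second testosterone reductase, by -1.82 and -1.41. Of the 6 treated arrays, Hsd3b1 was well above background on 2 in LWT and 3 in LKO, and Srd5a2 on 1 and 3. The sizes of both depended on the processing. Across the alternatives Hsd3b1 ran from -2.54 to -0.94 in LWT and from -2.87 to -1.16 in LKO. For Srd5a2 the ranges were -1.92 to -0.39 and -1.49 to -0.36. The differences in LWT and those in LKO share no mice, since each genotype has its own vehicle group.

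Between genotypes, 1 of the 29 was called higher in LKO and 3 lower under vehicle, 6 higher and 5 lower under CL316243, and 2 passed for the interaction. Of all genes 1.18%, 15.9% and 5.40% were called in these comparisons, in either direction. Hsd17b4, which works in peroxisomal fatty acid oxidation, was lower in LKO under vehicle (-0.89, SE 0.08, limma adjusted p = 2.89e-07) and under CL316243 (-1.80, SE 0.08, adjusted p = 3.74e-13). Its LWT level ran from 6.52 to 6.75 under vehicle and 7.19 to 7.58 after treatment, and its LKO level from 5.54 to 5.87 and 5.47 to 5.88. Its interaction was -0.90 (SE 0.12, adjusted p = 2.83e-05). Hsd17b12, an enzyme of fatty acid elongation, had an interaction of -0.66 (SE 0.09, adjusted p = 7.56e-05), with a difference of 0.67 (adjusted p = 6.21e-08) in LWT and 0.02 (adjusted p = 0.858) in LKO. Hsd17b11, a lipid droplet enzyme, was lower in LKO under CL316243 (-1.56, SE 0.19, adjusted p = 3.23e-06) and under vehicle (-1.24, SE 0.19, adjusted p = 0.000567), where the mean of its probes gave an adjusted p of 0.066. Hsd17b7, an enzyme of cholesterol synthesis, was lower under CL316243 (-1.27, adjusted p = 9.51e-07). Sult1e1, the estrogen sulfotransferase, was higher in LKO under CL316243 (2.77, SE 0.76, adjusted p = 0.0137), a call lost when only the compared groups were fitted (adjusted p = 0.0528).

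Of 19 genes known for higher expression in male liver, 1 was called higher and 4 lower in each genotype, with a median difference of -0.17 in LWT and -0.11 in LKO; the shares of all genes called lower were 19.1% and 19.4%. The largest called difference in LWT was that of Elovl3, a fatty acid elongase, which was higher (1.74, limma adjusted p = 0.000515) and had a difference of 0.05 in LKO (interaction adjusted p = 0.0515). The lower ones included Selenbp2 (-1.04 in LWT, limma adjusted p = 0.000137; -0.94 in LKO, adjusted p = 0.000381) and Slco1a1 (-0.73, adjusted p = 0.000153; -0.55, adjusted p = 0.00214). Of 20 female-biased genes, 13 could be tested. Cyp2b13, Cyp3a44, Sult2a1, Sult3a1, A1bg and Hao2 did not pass the filter, and Cyp3a41b was not on the array. Of the 13, 2 were called higher and 1 lower in LWT, and 3 and 3 in LKO, where 20.7% and 19.4% of all genes were called.

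Of 24 hormone receptors and regulators, 5 were called higher and 8 lower in LWT and 4 and 7 in LKO, against all-gene shares of 19.1% each way in LWT and of 20.7% and 19.4% in LKO. Socs3, an inhibitor of cytokine and growth hormone signalling, was higher in both (2.99 in LWT, limma adjusted p = 0.00106; 3.01 in LKO, adjusted p = 0.00101). Nr3c2, the mineralocorticoid receptor, was lower (-2.23, adjusted p = 1.34e-07; -1.29, adjusted p = 0.000124). Stat5b, a transcription factor of growth hormone signalling, had an interaction of 1.01 (SE 0.13, adjusted p = 3.17e-05). Its mean level was 3.23 under vehicle and 2.87 after treatment in LWT, and 3.13 and 3.78 in LKO. Of 10 glucocorticoid targets, 6 were called higher and 1 lower in LWT and 3 and 1 in LKO. Tsc22d3 was the lower one in both, by -1.32 (adjusted p = 0.000292) and -1.20 (adjusted p = 0.000731). Mt2 (4.66 and 5.16) and Lcn2 (6.07 and 6.78) were the largest among those higher and are acute phase genes as well.

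Markers of other cell types moved with the treatment to different degrees, and their part in the results above was not tested. The summed signal of the 6 neutrophil markers spanned 4.35 to 9.22 under vehicle and 4.68 to 20.2 after treatment in LWT, and 4.43 to 6.28 and 6.76 to 65.4 in LKO. Of the 6, S100a8 and S100a9 were called higher and Ly6g (-0.38) and Camp (-0.41) lower in LWT, and S100a8, S100a9 and Elane higher in LKO. For the 5 cholangiocyte markers the same ranges were 5.44 to 9.61 and 6.24 to 20.7 in LWT, and 5.19 to 9.82 and 10.5 to 20.6 in LKO. Of the 5, Sox9 was called higher in LWT and Sox9 and Spp1 in LKO, while the keratins Krt19 and Krt7 and Epcam were not called in either. For the 7 macrophage markers they were 78.2 to 165 and 88.2 to 171 in LWT, and 85.5 to 148 and 79.9 to 148 in LKO. Of 6 adrenal cortex markers, Cyp11a1, Cyp11b1 and Cyp11b2, the defining enzymes, did not pass the filter. The summed signal of the 3 tested, Cyp21a1, Star and Mc2r, spanned 3.72 to 8.22 under vehicle and 6.32 to 11.1 after treatment in LWT. In LKO the ranges were 2.84 to 6.54 and 4.63 to 13.2. Of these 3, 0 were called in LWT, and Cyp21a1 was called higher in LKO (0.91, limma adjusted p = 0.00726).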

How the data were processed

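Liver RNA of 24 mice was measured on 24 single-colour arrays on 3 slides of 8, with 2 mice of each group per slide; groups come from the genotype and treatment in the labels. The scanner tables hold background-subtracted spot intensities, made by the authors in Agilent Feature Extraction (version 10.10.1.1 in the file headers; annotation build mm9). The deposited series table holds log2 values and served as an alternative.

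Outlier spots were removed and log2 intensities averaged per probe, then expressed relative to the array's 75th percentile. Probes were kept that had 3 or more values in every group and a signal well above background in 4 or more of the 6 mice of any group. The brightest kept probe stood for its gene. Group means of all 24 arrays were fitted with limma 3.58.1 in R 4.3.3 (prior df 2.18, residual df 20), with Benjamini-Hochberg adjustment over all genes, or over all probes where stated, and calls at 0.05. The fit was tested on simulated data. The median SE was 0.13 between 2 groups and 0.19 for the interaction; the number of arrays limits the precision. Likeness to Hsd3b5 is Pearson's r, passing over identifier-like names and Hsd3b genes. From each other list, up to 4 called genes with the largest difference per comparison may be named, and values of such a gene in another comparison were added after they were seen. Members and lists were chosen with earlier results of these data known. Alternatives were background correction, normalization, the series table, the dim-probe filter, probe averaging, slide and replicate blocks, fits of the compared groups alone, and leaving out each mouse. The plots were drawn with matplotlib 3.10.9. Some genes that the naming rule selects are not reported here.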

Additional observations from a re-analysis of the deposited data

Results flagged for a closer look

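Among the 64 sets of 6 mice (16 probes in 4 groups), 7 held a mouse far from the other 5. This was judged by the gap to its nearest neighbour as a share of the range. For independent, normally distributed values chance alone gives about 1 in 20. The sets share mice and arrays and are not independent, so nothing is read from the count. The widest was the dim Hsd17b13 probe at base 1430, at 0.68 in LWT vehicle replicate 1 against -1.79 for the next. LWT vehicle replicate 3 was highest for the brighter Hsd17b13 probe (5.89, next 5.28) and lowest for Akr1c6 (8.88, next 9.14). LWT CL316243 replicate 3 was lowest for the brightest Hsd3b2 probe (4.74, next 5.06) and for the Akr1d1 probe at base 188 (-2.36, next -1.38). For the RefSeq probes of Hsd3b2, LKO vehicle replicate 2 was low at base 1716 (3.29, next 3.82) and LWT vehicle replicate 4 was high at base 1067 (3.41, next 3.10).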

How the results depend on the processing

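Hsd3b5 kept the direction of its treatment differences under every alternative run. Leaving out each mouse in turn gave -6.08 to -5.46 in LWT and -5.25 to -4.76 in LKO. Hsd11b1 under vehicle stayed past the threshold without each mouse (adjusted p 0.0124 to 0.0425), as did Srd5a1 under CL316243 (0.00314 to 0.0182). The members called between genotypes under CL316243 were 2 with quantile normalization or the authors' series table, 0 with the mean of the probes, and 1 to 2 without each mouse. Genes called there were 2180 with only the groups of the comparison (fewer samples), against 3383, and interaction genes 678 without the dim-probe filter (more genes tested), against 1152. The mean of a gene's probes turned the sign of the LKO minus LWT difference of Hsd3b2 under vehicle (0.12), of Srd5a1 (-0.08) and Akr1d1 (0.08) under CL316243, and of the Srd5a1 interaction (-0.40). Differences near 0 changed sign as single mice were left out: Hsd17b13 under vehicle ran from -0.11 to 0.09, and under CL316243 Hsd3b3 ran from -0.05 to 0.22, Hsd17b2 from -0.02 to 0.12, Hsd17b6 from -0.33 to 0.11 and Akr1d1 from -0.09 to 0.03. The cause was not tested for any of these. Of 62 calls of genes outside the members, 49 held in every setting.

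Arrays with the same replicate number in different groups had a mean correlation of deviations of 0.058 over 36 pairs, of which 11 were over 0.1, against -0.011 over 180 other pairs, of which 20 were. Since not every same-number pair was over 0.1, the numbers were not taken to pair the mice. Paired mice could also miss that rule, so it cannot decide whether they were paired. Number and slide were also partly mixed: the arrays numbered 5 were all on slide 3. With the replicate block, 265 genes were called between genotypes under vehicle, 3497 under CL316243 and 1203 for the interaction, and 1, 1 and 0 of the members. The cDNA clone probe of Srd5a1 had an SE of 0.55 and was not well above background on 1 array.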
